A study of Mus musculus with 4 samples.

Results

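The genes described here encode enzymes that methylate or demethylate DNA, and the enzymes, readers and remodellers that modify histones or move nucleosomes. The set was given as a list of 59 mouse gene symbols, and all 59 were found among the 47643 Ensembl genes of the count table and among the 9546 genes of the rlog table. All 59 also passed the minimum of 10 counts summed over the libraries that left 9608 genes to be tested. The CD4+ T cells came from spleens of Tg4 Nr4a3-Tocky Il10-EGFP mice. In these mice the Tg4 transgene fixes the T cell receptor on a peptide of myelin basic protein, transcription of Nr4a3 is read by fluorescent Timer protein, and that of Il10 by EGFP. Mice had received 4 mg/kg of the peptide [4Y]-MBP under the skin, and spleens were taken 24 h later. Both sorted populations were positive for Timer, so every library came from cells in which the receptor had recently signalled, and the populations differed in Il10-EGFP. There were 2 libraries from Il10-EGFP+ (positive) and 2 from Il10-EGFP- (negative) T cells, and a further pair that the methods describe as removed was not analysed here. The labels give neither the age of the mice nor whether equal replicate numbers mark the same mouse, and p-values therefore measure the spread between these libraries.

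DNA methyltransferases add methyl groups to cytosine and TET dioxygenases oxidise them. Histones are acetylated, deacetylated, methylated and demethylated by separate enzyme families, Polycomb complexes place and read repressive marks, and BAF, ISWI and CHD complexes use ATP to move nucleosomes. In T cells these enzymes act at many genes, and they are known to maintain or erase the state of cytokine genes as cells differentiate. The comparison asked whether activated T cells that had switched on Il10 within a day differed in the RNA of this machinery from activated cells that had not.

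The libraries held 644679 to 730330 counts, of which 99.3 to 99.4% fell in tested genes. QuantSeq FWD reads come from the 3′ end of transcripts, so counts do not scale with gene length. Il10, the gene behind the sort, had a mean of 52.6 CPM (counts scaled by library size and TMM factor) in Il10-EGFP+ T cells and 0 in Il10-EGFP- T cells, where a count of 0 allows up to 3 counts in a library. Cd4 had 149 to 209 counts in each library, or 208 and 217 CPM in the negative and 257 and 302 CPM in the positive libraries. Of the 9 CD4 T cell markers tested, 7 had a log2 fold change above 0 and 2 below it. The only one called was Trac, which was higher (log2 fold change 0.59, edgeR adjusted p = 0.00449), and 4 were higher at an unadjusted p under 0.05. Among markers of other states and cells, 11 of 16 G2/M genes passed an adjusted p of 0.05, higher in the positive libraries, with a summed level of 2884 and 2758 CPM against 5793 and 5515 CPM, while 1 of 16 S phase genes was called. Of the 9 B cell markers tested, 5 were called higher, with sums of 134 and 220 CPM against 578 and 620 CPM, although the defining gene Cd79a had 2, 0, 0 and 0 counts. The 9 myeloid markers tested summed to 78.7 and 111 CPM against 344 and 140.0 CPM, with 2 called higher, and Adgre1 had 0 counts in every library. None of 4 CD8 or NK markers was called by edgeR, and 1 had an unadjusted p under 0.05. The part of these differences in the results below was not tested.

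Summed over the 59 genes, the machinery took 0.876% and 0.891% of the counts in the negative libraries, and 0.831% and 0.859% in the positive ones. By gene, the mean count per library ran from 4 for Ring1 to 549.75 for Rbbp4, with a median of 59.25 against 21.25 over all tested genes, so this set was measured with more counts than most. The quasi-likelihood test of edgeR with Benjamini-Hochberg adjustment over all 9608 genes called 1 of the 59 genes, Prmt1, which was lower in Il10-EGFP+ T cells. That is 1.69% of the set beside 4.09% of all genes tested (393 genes), of which 226 (2.35% of the tested) were higher and 167 (1.74%) lower. Where the mean reached 20 counts, 1 of 46 members (2.17%) was called beside 6.71% of all such genes. At an unadjusted p under 0.05 there were 8 members (13.6%), 1 higher and 7 lower, beside 15.5% of all genes, of which 7.96% were higher and 7.49% lower. With a mean of at least 20 counts, 1 member was higher and 6 were lower at this unadjusted threshold, beside 10.4% and 10.3% of all such genes. The methods speak of a replicate pair, and with the replicate number as a block edgeR called 3 members, Prmt1, Hdac2 and Trim28 (5.08%, beside 5.83% of all genes). DESeq2's Wald test called none of the 59 and 1.17% of all genes, and it left 3 members at an unadjusted p under 0.05.

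In direction, 27 members had a log2 fold change above 0 and 32 below it, where all genes split at 50% each, and the median over the set was -0.0095 beside 2.5e-05 over all genes. No member reached a log2 fold change of 1 in either direction, and 9 were beyond 0.5: Tet1 and Kat6a above it, and Dnmt3b, Tet3, Hdac2, Setd1a, Setdb1, Kdm2b and Smarcb1 below it. The 95% interval of the log2 fold change stayed within 1 of 0 in both directions for 40 members and within 0.5 for 13, and for the rest the counts left larger differences possible. The 2 populations did not overlap in CPM for 8 members that were higher (13.6%, beside 22.3% of all genes) and for 17 that were lower (28.8%, beside 22.3%). On the deposited rlog scale, 58 of 59 members had the same sign of difference, the exception being Arid1b, whose log2 fold change was -0.0095. In bulk RNA, a gene that is less abundant per cell cannot be told apart from a gene carried by fewer of the cells, and this holds for each gene below.

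**Figure D1:**
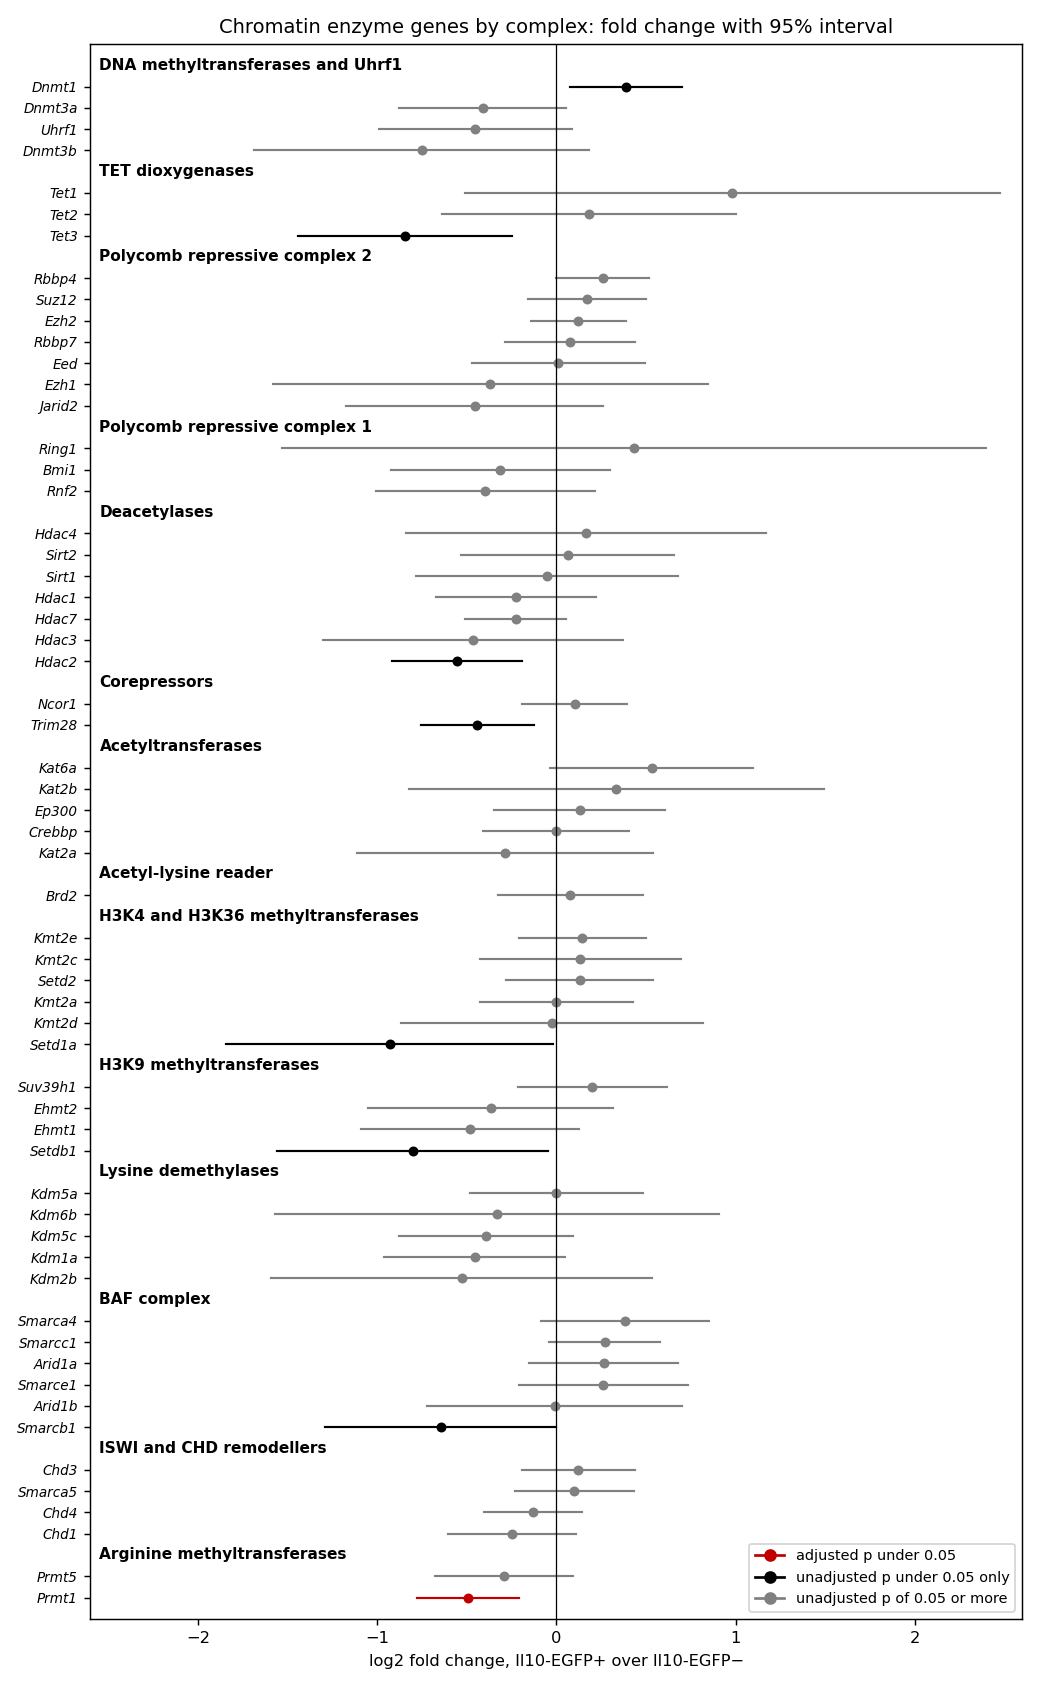
Each of the 59 genes is a row, grouped by complex, with its log2 fold change (Il10-EGFP+ over Il10-EGFP-, horizontal axis) as a point and the 95% interval from edgeR as a line. Prmt1 is the only gene called after adjustment, and the wide lines of Tet1 and Ring1 belong to genes with few counts.

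The libraries of a population differed among themselves as well. Between the Il10-EGFP- libraries, 6 of the 59 genes (10.2%) were at least 1.5-fold apart in CPM, and between the Il10-EGFP+ libraries 12 (20.3%), beside 32.5% and 32.7% of all tested genes. Among members with a mean count of 20 or more these shares were 8.7% and 17.4%, beside 12.3% and 13.5% of all such genes. The first Il10-EGFP+ library was below the second for 37 members (62.7%, beside 49.4% of all genes). Kdm1a, a demethylase of H3K4, was an instance, with 32 counts in the first and 64 in the second Il10-EGFP+ library and 77 and 64 in the Il10-EGFP- libraries. Ehmt1 (19 and 44 counts), Prmt5 (76 and 142), Rnf2 (21 and 40) and Kdm5c (37 and 67) had the same order of the Il10-EGFP+ libraries.

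Prmt1 encodes the main enzyme for asymmetric dimethylation of arginine, with histone H4 and many RNA-binding proteins among its substrates. The gene lies on the minus strand of chr7:44975989-44986568 (GRCm38). It had 423 and 402 counts in the negative and 289 and 254 in the positive libraries, or 574 and 587 CPM against 458 and 366 CPM. Both Il10-EGFP+ libraries lay below both Il10-EGFP- libraries. The log2 fold change was -0.50 (standard error 0.14, 95% interval -0.78 to -0.21, edgeR adjusted p = 0.0305). The call was lost with DESeq2 (adjusted p = 0.172), with limma on the rlog values (0.0814), and when any library except the first Il10-EGFP+ library was left out. Without the second Il10-EGFP+ library the log2 fold change was -0.34 (adjusted p = 0.436). The last 600 bases of Prmt1 transcripts hold 22 runs of 50 bases also found in the annotated gene that shares most with them, which leaves its counts uncertain.

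Prmt5, the main enzyme for symmetric dimethylation of arginine, was measured at 139 and 146 counts in the negative and at 76 and 142 in the positive libraries. The second Il10-EGFP+ library lay between the Il10-EGFP- libraries in CPM, and the log2 fold change of -0.29 (standard error 0.19) gave an edgeR adjusted p of 0.509. Its partners and the remaining arginine methyltransferases were taken from a wider list of 161 chromatin genes, of which 147 were tested. Of these, 6 were called (4.08%, beside 4.09% of all genes) and 23 had an unadjusted p under 0.05 (15.6%, beside 15.5%), so the shares were at the background. DESeq2 called 1 of them, Clns1a. Clns1a, which encodes pICln, an adaptor that brings splicing proteins to PRMT5, lies at chr7:97696634-97720796 on the plus strand. It had 164 and 160 counts in the negative and 67 and 90 in the positive libraries, which is 228 ± 7.67 against 118 ± 16.7 CPM (SD, n = 2 each). Its log2 fold change of -0.94 (standard error 0.19, edgeR adjusted p = 0.000597) was called by DESeq2 (adjusted p = 0.0322), by limma on the rlog values (0.0192) and without each library in turn (0.00114 to 0.0248). Its transcript end shares 36 sequences of 50 bases with a pseudogene, Gm14131, that had 0 counts.

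Prmt7, which monomethylates arginine, was also lower, with 35 and 26 counts against 10 and 11 (log2 fold change -1.42, standard error 0.41, edgeR adjusted p = 0.0323). It lies on the plus strand of chr8:106210936-106252794. That call rested on few counts and was lost with DESeq2 (adjusted p = 0.376), with limma on the rlog values (0.0929) and without any of the libraries (0.0506 to 0.236). Wdr77, the obligate partner of PRMT5, had 46 and 49 counts against 24 and 32, with a log2 fold change of -0.66 and an edgeR adjusted p of 0.251. Over the 10 genes of this family and its partners, 9 had a log2 fold change below 0 (50% of all genes), 3 were called lower (1.74% of all genes), none was called higher, and the median was -0.46. The partners were added to the list with results of these data known. The exception in direction, Prmt9, had 9 and 7 against 9 and 8 counts. Summed over the 10 genes, the level was 1376 and 1373 CPM in the negative and 941 and 958 CPM in the positive libraries. Prmt2, Prmt3, Prmt6 and Carm1 had log2 fold changes from -0.18 to -0.48, and none was called.

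**Figure D2:**
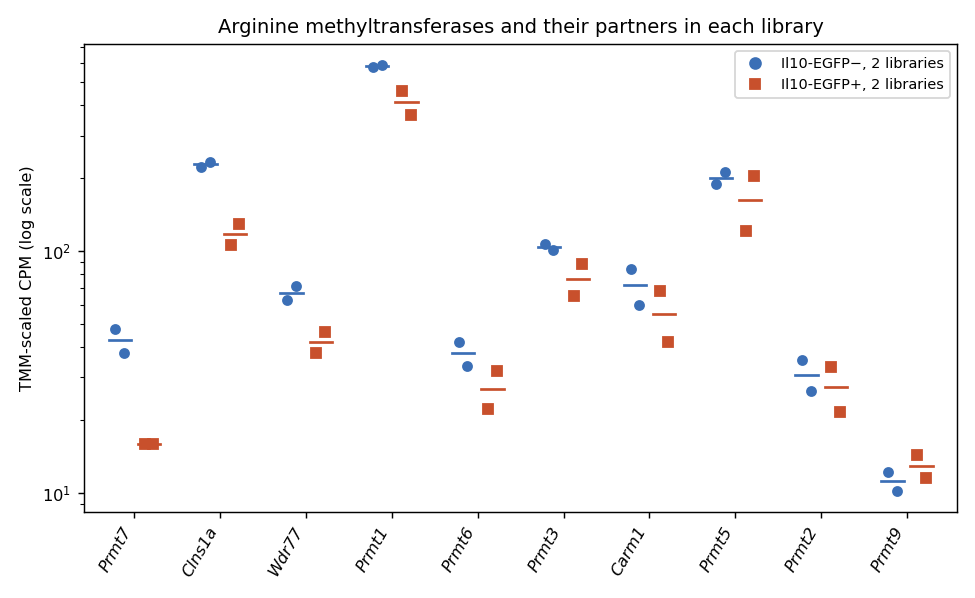
TMM-scaled CPM on a log axis is shown for each arginine methyltransferase gene or partner in the 2 Il10-EGFP- libraries (circles) and the 2 Il10-EGFP+ libraries (squares), with bars at the means. Clns1a and Prmt1 keep the populations apart, while the squares of Prmt5 are spread over 120 and 205 CPM.

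Promoter windows of RefSeq (GRCm38.p6), running from 250 bases before to 50 after a gene's start, were searched for the E-box CACGTG on both strands, a motif that was added after these promoters had been read. Of the 9 genes of this family with a window, 4 held it, beside 8.09% of 27025 genes with a window, 12.5% of the 7373 tested genes with a window and 6 of the 50 members with a window. The windows of Prmt2, Prmt5, Prmt6, Prmt7 and Prmt9 held no E-box, and all of these but Prmt9 also had a fold change below 0. Among the 4 with the motif, Clns1a and Wdr77 are partners added to the list with results known. The 30 bases around the E-box are given for each of the 4. Capitals mark the E-box and any CCAAT box or E2F motif in the stretch, read 5′ to 3′ along the gene's strand.
Prmt1, chr7:44986589-44986618, minus strand: attttacCCAATcgtcaCACGTGctgggtg
Clns1a, chr7:97696521-97696550, plus strand: aGCGGGAAAggggaaccgatgcCACGTGac
Prmt3, chr7:49778333-49778362, plus strand: gccccctacgccCACGTGacccggaagcgc
Wdr77, chr3:105959495-105959524, plus strand: gcagaggtacacCACGTGtgcggtccctcc
Counted from the RefSeq start on which each window is built, which need not be the end of the GENCODE gene given above, the E-box began 181 bases before 44986420 for Prmt1, 114 before 97696657 for Clns1a and 13 before 49778358 for Prmt3. For Wdr77 it began 9 bases after 105959498. A match describes the letters of the window and does not show that a factor was bound there.

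The maintenance methyltransferase Dnmt1 was the only member higher at an unadjusted p under 0.05. It lies on the minus strand of chr9:20907209-20959888 and had 191 and 181 counts in the negative and 197 and 257 in the positive libraries, or 259 and 264 CPM against 312 and 371 CPM. The populations did not overlap, and the log2 fold change was 0.39 (standard error 0.16, edgeR adjusted p = 0.176), which did not pass the threshold. Its partner Uhrf1, which recognises hemimethylated DNA, had 62 and 51 counts against 30 and 47, a difference of -0.45 on the log2 scale (standard error 0.27, adjusted p = 0.446). The de novo enzyme Dnmt3a, at 70 and 81 against 46 and 60 counts, differed by -0.41 on the log2 scale (adjusted p = 0.416). Dnmt3b, with 9 to 21 counts in each library, had -0.75 (adjusted p = 0.476). Each of these 3 lay lower in both Il10-EGFP+ libraries than in both Il10-EGFP- libraries, opposite to Dnmt1. Of 7 further tested genes that read or remove methyl-cytosine, such as Mbd2 and Tdg, none was called and none had an unadjusted p under 0.05. At the transcript end of Dnmt1, 21 runs of 50 bases were also found in Emp2, with 0 counts, and in Tepsin, with 10 counts in all.

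Tet3 had the lowest unadjusted p of the TET dioxygenases. It had 45 and 57 counts in the negative and 23 and 30 in the positive libraries, and the populations did not overlap. The log2 fold change was -0.84 (standard error 0.30, 95% interval -1.44 to -0.25) with an edgeR adjusted p of 0.0997. Tet2, which is often lost in T cell malignancies, had 17 and 19 counts against 20 and 18 (log2 fold change 0.18, standard error 0.41). Tet1 had 2 and 7 against 4 and 13 counts, and its log2 fold change of 0.98 carried an interval from -0.51 to 2.47. At these counts a difference in Tet1 or Tet2 was not detectable unless it was large.

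Polycomb repressive complex 2, which methylates H3K27, had no called gene among its 7 members, and none at an unadjusted p under 0.05. Ezh2, its catalytic subunit, had 475 and 490 counts in the negative and 486 and 492 in the positive libraries, with overlapping CPM. The log2 difference was 0.12 (standard error 0.13, adjusted p = 0.750 with edgeR), and the 95% interval ran from -0.14 to 0.39. Rbbp4, the histone chaperone of this and other complexes, had 521 and 520 counts against 573 and 585, which gave 0.26 on the log2 scale (standard error 0.13, adjusted p = 0.328). Suz12, Eed and Rbbp7 had log2 fold changes of 0.17, 0.01 and 0.08. The lower-count members Jarid2 and Ezh1 had -0.46 and -0.37, and Ezh1 had 10 and 12 counts against 2 and 14. Summed over its 7 genes the complex stood at 1953 and 1993 CPM in the negative and at 2207 and 2194 CPM in the positive libraries. Rbbp4 made the largest difference in that sum. Of Polycomb repressive complex 1, which ubiquitinates H2A, Bmi1 had 33 and 51 against 34 and 29 counts (log2 fold change -0.31, standard error 0.31), and its direction turned without the second Il10-EGFP- library. Its transcript end shares 225 sequences of 50 bases with a pseudogene, Gm5946, which had 2 counts in all. Ring1 had 4 and 3 against 0 and 9 counts, and Rnf2 had a log2 fold change of -0.40. Of the further tested genes, 5 were listed with complex 2 and 17 with complex 1, and none was called. The 17 include the H2A deubiquitinase Bap1 and its partners Asxl1 and Asxl2, which are not subunits of complex 1. At an unadjusted p under 0.05 Aebp2 was higher, and Cbx2, Pcgf6, Phc2 and Bap1 were lower, beside 7.96% and 7.49% of all genes.

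Hdac2, a class I deacetylase of the NuRD, Sin3 and CoREST complexes, came nearest to the threshold after Prmt1. The gene lies at chr10:36974544-37001889 on the plus strand and had 149 and 169 counts in the negative and 92 and 110 in the positive libraries. In CPM this was 202 and 247 against 146 and 159, with no overlap. Its log2 fold change of -0.56 (standard error 0.18) gave an edgeR adjusted p of 0.0674, and it was called where only genes with at least 10 counts in every library were tested (adjusted p = 0.0376) and with the replicate block (0.0246). Its paralog Hdac1 had 76 and 100 counts against 80 and 60 (log2 fold change -0.23, standard error 0.22), with overlapping libraries and a direction that turned without the second library of either population. The end of Hdac1 shares 635 sequences of 50 bases with a pseudogene, Gm10093, which had 3 counts in all. The class IIa gene Hdac7 had 432 and 389 against 345 and 305 counts, with no overlap and -0.23 on the log2 scale (adjusted p = 0.467). Hdac3, Hdac4, Sirt1 and Sirt2 had log2 fold changes from -0.47 to 0.16. Summed, the 7 deacetylases stood at 1030 and 1088 CPM against 940 and 821 CPM.

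Trim28 (KAP1) encodes the corepressor through which zinc finger proteins bring H3K9 methylation to their target sites. The gene had 285 and 225 counts in the negative and 185 and 163 in the positive libraries. The populations did not overlap, and the log2 fold change was -0.44 (standard error 0.16, edgeR adjusted p = 0.105, and 0.0373 with the replicate block). Setdb1, the H3K9 methyltransferase that TRIM28 recruits, had 33 and 27 against 12 and 20 counts, or -0.80 on the log2 scale (standard error 0.38, adjusted p = 0.279). Exons of Setdb1 overlap Cers2 on the other strand, which had 57 and 48 against 42 and 53 counts, and the strand setting of the counting is not given in the sources used here. Its end also shares 383 sequences of 50 bases with Gm4349, which had 0 counts. The remaining H3K9 methyltransferases Ehmt1, Ehmt2 and Suv39h1 had log2 fold changes of -0.48, -0.37 and 0.20. Ncor1, the corepressor that holds HDAC3, had 254 and 280 against 251 and 284 counts, or 0.10 on the log2 scale (standard error 0.15). Exons of this gene overlap Pigl and Ttc19 on the other strand, with 16 and 54 counts in all.

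**Figure D3:**
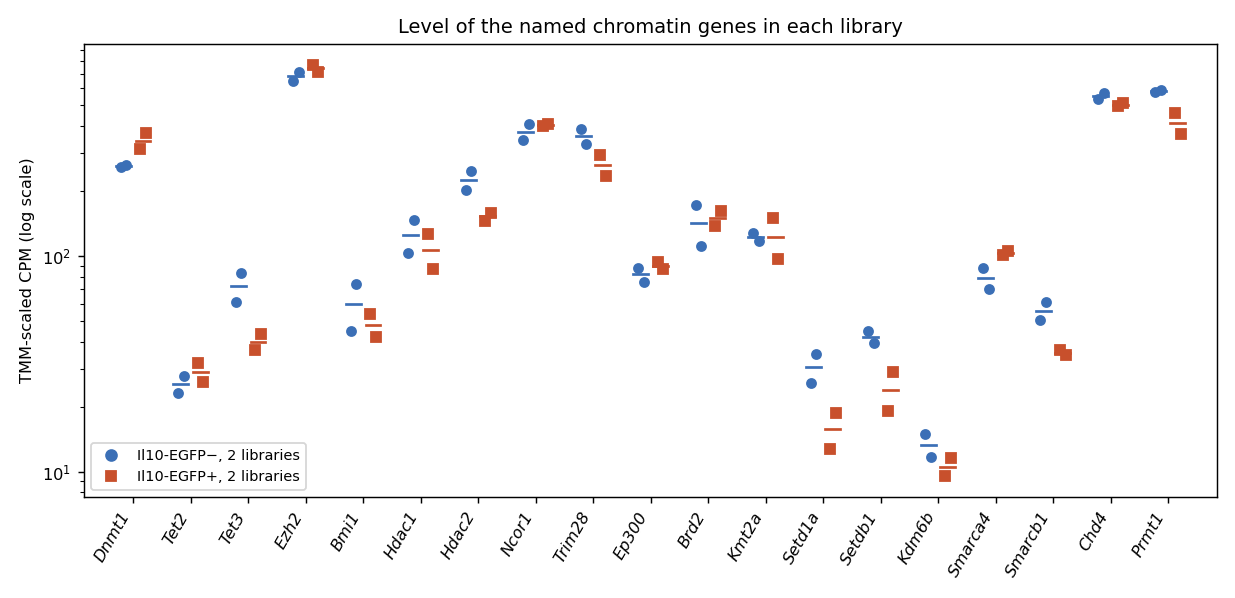
TMM-scaled CPM on a log axis is shown for 19 of the 59 genes, chosen as the defining gene of each group or by an unadjusted p under 0.05, with circles for the 2 Il10-EGFP- libraries, squares for the 2 Il10-EGFP+ libraries and bars for the means. Prmt1, Hdac2, Tet3, Trim28, Setdb1, Setd1a and Smarcb1 have both squares below both circles, Dnmt1 has both above, and Ezh2, Ncor1 and Kmt2a overlap.

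Acetyltransferases and the acetyl-lysine reader Brd2 showed no called difference, and none had an unadjusted p under 0.05. Ep300, the coactivator p300, had 65 and 52 against 59 and 60 counts (log2 fold change 0.13, standard error 0.24), and its paralog Crebbp had 104 and 86 against 72 and 105 counts (-0.0023). Kat6a, the MOZ acetyltransferase, had 37 and 34 against 38 and 58 counts and a log2 fold change of 0.53 (standard error 0.28, edgeR adjusted p = 0.372). Kat2a and Kat2b had log2 fold changes of -0.29 and 0.33. Brd2 had 127 and 76 against 87 and 112 counts, so that the Il10-EGFP- libraries spanned the Il10-EGFP+ libraries. Its exons overlap H2-DMa on the other strand, which had 79 counts in all. Brd8, a reader outside the list of 59, had 56 and 70 against 84 and 89 counts and did not pass the threshold either (0.56 on the log2 scale, edgeR adjusted p = 0.155).

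Among the H3K4 and H3K36 methyltransferases, Kmt2a, the MLL1 enzyme, had 94 and 80 counts in the negative and 94 and 67 in the positive libraries. Its log2 fold change of -0.0018 (standard error 0.21) turned sign with another scaling, and the interval ran from -0.43 to 0.42. Kmt2c, Kmt2d, Kmt2e and Setd2 had log2 fold changes from -0.02 to 0.15. Setd1a, the catalytic subunit of a COMPASS complex, had 19 and 24 against 8 and 13 counts, or -0.93 on the log2 scale (standard error 0.46, edgeR adjusted p = 0.309). Wdr5, a subunit that the KMT2 and SETD1 complexes share, was not among the 59 genes and had 98 and 78 against 58 and 43 counts (log2 fold change -0.69, adjusted p = 0.0784, and 0.0391 with the replicate block). None of 16 further tested genes of this group was called without the block, with 1 higher and 2 lower at an unadjusted p under 0.05.

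Of the 5 lysine demethylases, Kdm1a, Kdm2b, Kdm5c and Kdm6b had log2 fold changes from -0.53 to -0.33, and Kdm5a lay at 0 with an interval from -0.48 to 0.48. Kdm6b, the H3K27 demethylase JMJD3, had 11 and 8 against 6 and 8 counts, which cannot resolve a difference of its size (log2 fold change -0.33, 95% interval -1.57 to 0.91). Summed over the 5 genes, the second Il10-EGFP+ library, at 304 CPM, was close to the Il10-EGFP- libraries, at 323 and 311 CPM, and the first stood at 206 CPM. A further gene of the family, Riox1, a nucleolar JmjC oxygenase on the plus strand of chr12:83950608-83952951, was called lower. It had 95 and 89 counts in the negative and 40 and 54 in the positive libraries, a log2 fold change of -0.87 (standard error 0.23, edgeR adjusted p = 0.0156). The call was lost with DESeq2 (adjusted p = 0.242) and when any library except the second Il10-EGFP+ library was left out (up to 0.165).

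In the BAF complex the ATPase Smarca4 (BRG1) had 65 and 48 counts in the negative and 64 and 73 in the positive libraries, or 0.38 on the log2 scale (standard error 0.23, edgeR adjusted p = 0.467). Smarcc1, Smarce1 and Arid1a had log2 fold changes from 0.26 to 0.27. The core subunit Smarcb1 had 37 and 42 against 23 and 24 counts (log2 fold change -0.65, standard error 0.32, adjusted p = 0.321). The alternative ATPase Smarca2 (BRM) was in the wider list and rose, with 24 and 24 counts against 51 and 50. It lies at chr19:26605050-26778322 on the plus strand, and its log2 fold change of 1.17 (standard error 0.30, edgeR adjusted p = 0.0124) kept its direction in all 14 alternatives. Its transcript end shares 7 sequences of 50 bases with Neil3, which had 6 and 3 against 11 and 16 counts. The call was lost with DESeq2 (adjusted p = 0.215) and without the first library of either population (0.0914 and 0.0951). Over the 18 tested genes of the complex, 12 were above 0 and 6 below, and their sum was 1748 and 1685 CPM in the negative and 1966 and 1938 CPM in the positive libraries.

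Of the remaining remodellers, Smarca5, the ISWI ATPase SNF2H, had 182 and 149 against 158 and 172 counts (log2 fold change 0.10), and Chd3 had a log2 fold change of 0.12. Chd4, the NuRD ATPase, had 392 and 388 against 311 and 353 counts, a log2 fold change of -0.13 (standard error 0.14, edgeR adjusted p = 0.739), and the interval kept it within -0.41 to 0.14. Chd1, which reads H3K4 methylation, had -0.25. Chd7 and Chd8, remodellers of another CHD subfamily that were in the wider list, were both called higher. Chd6 and Chd9 of the same subfamily and list were not. Chd6 had 21 and 20 against 22 and 11 counts (log2 fold change -0.20), and Chd9 had 23 and 23 against 21 and 19 (-0.097). Chd7, at chr4:8690406-8867659 on the plus strand, had 74 and 57 counts against 96 and 131, a log2 fold change of 0.89 (standard error 0.21, edgeR adjusted p = 0.00457). Chd8, at chr14:52198151-52257780 on the minus strand, had 69 and 61 counts against 93 and 123, or 0.83 on the log2 scale (standard error 0.21, adjusted p = 0.00974). DESeq2 called neither, with adjusted p of 0.125 and 0.185. The Chd7 call was lost without the second library of either population (0.0740 and 0.124), and that of Chd8 when any library except the first Il10-EGFP+ library was left out (up to 0.163). The end of Chd8 shares 29 sequences of 50 bases with a pseudogene, Gm49656.

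**Figure D4:**
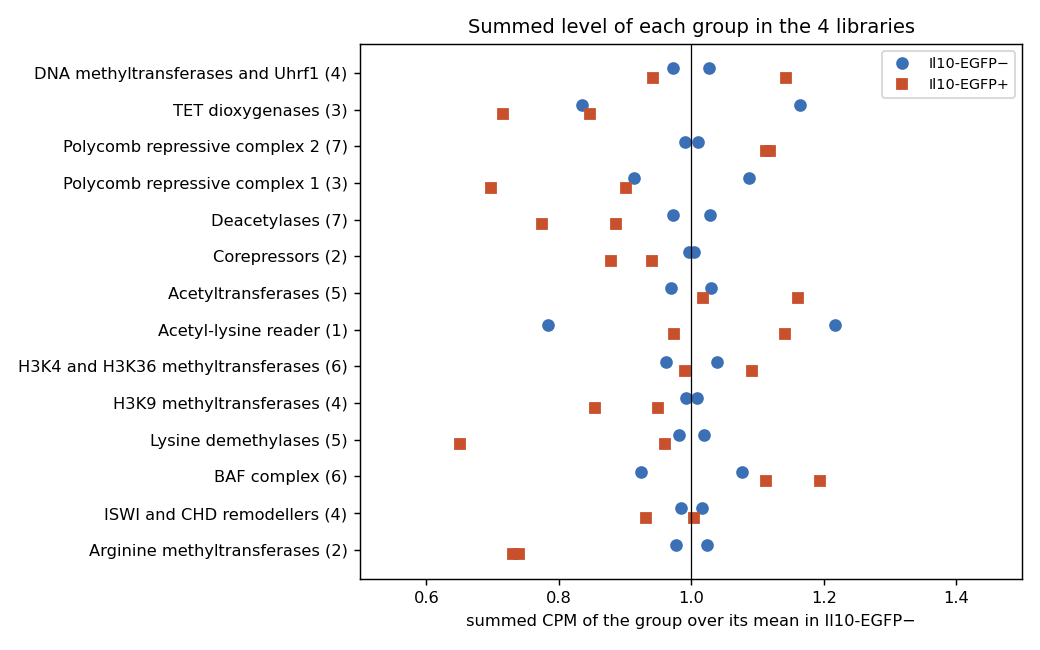
For each group of members, with its number of genes in brackets, the summed CPM of each library is divided by the mean of the 2 Il10-EGFP- libraries (circles, Il10-EGFP-; squares, Il10-EGFP+). Both squares lie right of both circles for Polycomb repressive complex 2 and the BAF complex, and left of both for Polycomb repressive complex 1, deacetylases, corepressors, H3K9 methyltransferases, lysine demethylases and arginine methyltransferases. The remaining groups overlap.

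The promoter windows were also searched on both strands for E2F motifs, spelled TTTCCCGC, TTTGGCGC, TTTCGCGC or TTTGCCGC, and for CCAAT. Of the 59 genes, 50 had a window, and 7 of these (14.0%) held an E2F motif, beside 2.6% of all 27025 genes and 5.43% of the 7373 tested genes with a window. They were Arid1a, Dnmt1, Ezh2, Kat2a, Suv39h1, Suz12 and Uhrf1. CCAAT was present in 40.0% of the members' windows and 41.1% of all. The windows of Dnmt1, Uhrf1, Ezh2 and Suz12 are given because they hold the same motif while the genes had fold changes of both signs, with the E2F motif in capitals.
Dnmt1, chr9:20952824-20952853, minus strand: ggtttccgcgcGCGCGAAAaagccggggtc
Uhrf1, chr17:56304117-56304146, plus strand: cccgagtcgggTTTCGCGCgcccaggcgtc
Ezh2, chr6:47595009-47595038, minus strand: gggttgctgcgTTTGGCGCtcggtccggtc
Suz12, chr11:79992876-79992905, plus strand: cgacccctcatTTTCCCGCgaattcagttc
The window of Dnmt1 is built on an internal start listed by RefSeq and holds 2 E2F matches. The match shown began 219 bases before that start, and the other 33 bases after it. The RefSeq starts used for Uhrf1 (56304313) and Ezh2 (47595030) also lie inside the GENCODE genes. Of the 7 genes with the motif, Arid1a, Dnmt1, Ezh2, Suv39h1 and Suz12 had a log2 fold change above 0 and Kat2a and Uhrf1 below it, and none was called, with Dnmt1 alone at an unadjusted p under 0.05.

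**Figure D5:**
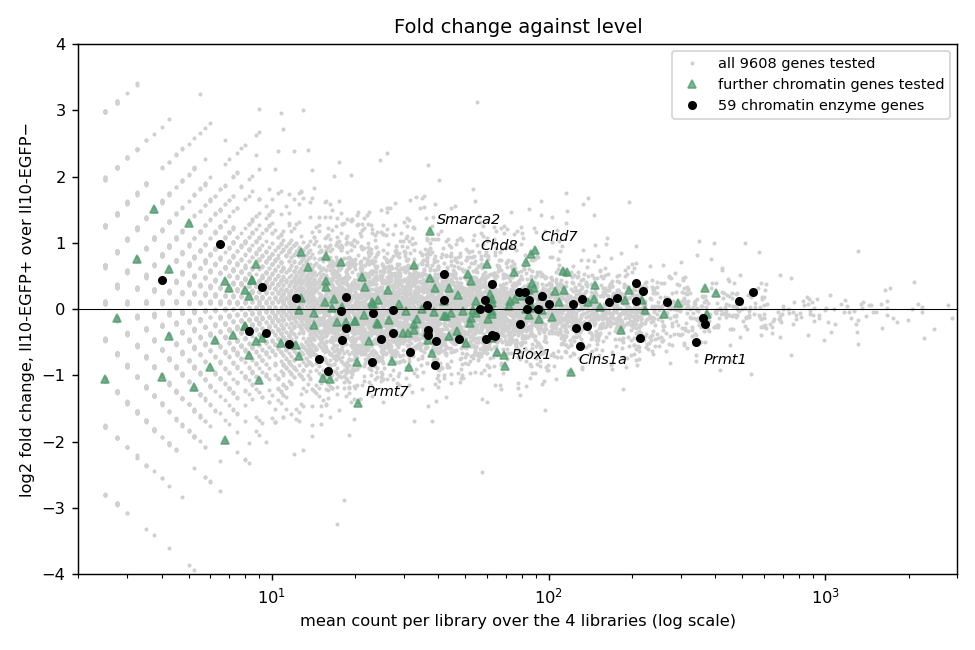
Log2 fold change (vertical axis) is plotted against the mean count per library on a log axis for all 9608 tested genes (grey), the further chromatin genes (triangles) and the 59 members (black circles), with the 7 called genes of both lists named and 31 genes outside the axes. The members lie close to 0 at counts where genes with larger fold changes are present.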

How the data were processed

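RNA of sorted cells was made into QuantSeq 3′ mRNA FWD libraries. Per the labels and methods, the authors aligned reads to GRCm38 (STAR 2.5.2a and HTSeq 0.6.0 stand in the submitters' processing notes) and deposited counts of reads per Ensembl gene and rlog values, a log2-scale transform made with DESeq2. The annotation release and strand setting are not given in the sources used here. Unique molecular identifiers were used, according to the methods, to assess input and duplicated reads and to keep amplification from biasing the data. Whether the deposited counts are of collapsed reads is not stated. The labels name the PureLink kit for RNA extraction, and the methods name Picopure.

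A sum of 10 counts or more in the 4 libraries was required, and edgeR 4.0.16 under R 4.3.3 (TMM, glmQLFit, glmQLFTest) gave the test, with Benjamini-Hochberg adjustment over all genes tested at 0.05. DESeq2 1.42.0 and limma 3.58.1 were alternatives, beside other filters and scalings, a replicate block and the omission of each library. Standard errors came from the fold change and the F statistic, and intervals are at 95%. The test was checked on simulated counts. Libraries held 644679 to 730330 counts, and replicates differed by more than sampling noise (chi-square per degree of freedom 2.05 and 1.87). Symbols came from a gene name table that lacked 419 identifiers, and coordinates from GENCODE M21 on GRCm38.

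The members and the further lists were chosen with earlier results of these data known. Genes named with full values are the defining gene of each group, members with an unadjusted p under 0.05, called further genes and the next further genes by p, except a gene that is not reported here. Other genes were named as members of a group.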

Additional observations from a re-analysis of the deposited data

How the results depend on the processing

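Of the 59 genes, the number called was 1 in the edgeR test. It was 2 with at least 10 counts required in every library (Hdac2 and Prmt1), 0 with DESeq2, 0 with limma on the rlog values, and 0 to 1 without each library in turn. It stayed at 1 with no filter, DESeq2 size factors, library size alone, upper-quartile scaling, limma voom and bias-adjusted deviances. Over all genes the calls went from 393 to 112 with DESeq2, to 195 with limma on rlog values, and to 201 to 264 without each library. For the further chromatin genes they went from 6 to 1 with DESeq2 (Clns1a) and to 2 to 4 without each library. Libraries of equal replicate number did not deviate together (correlation 0.0324 over 4965 genes), the labels name no shared mouse, and the methods speak of a replicate pair without saying what links it, so both fits are given. With a replicate block, 3 members (Hdac2, Prmt1 and Trim28) and 10 further genes were called, and 560 genes in all. DESeq2 gave no adjusted p for 4284 genes, 9 of them members. The cause of these differences was not tested. The median log2 fold change of the members stayed between -0.09 and 0.04.

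Directions turned for members near 0. Kmt2a stood at 0.0047 with at least 10 counts in every library, at 0.00096 with DESeq2 size factors and at 0.0064 with DESeq2. Without each library in turn, Kmt2a ran from -0.34 to 0.28, Bmi1 from -0.64 to 0.092, Hdac1 from -0.52 to 0.043, Ncor1 from -0.017 to 0.23 and Brd2 from -0.20 to 0.44. The depth, 644679 to 730330 counts a library, limits what can be said of genes such as Ring1, Tet1 and Kdm6b. Where a single library is left in a population, its spread is assumed to equal that of the other.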

Other observations

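Beyond the called genes, the further chromatin genes with the lowest p included higher and lower ones, and none of those named here passed the threshold of the edgeR test on genes with 10 summed counts and no replicate block, after Benjamini-Hochberg adjustment. Sirt7, a nucleolar deacetylase, had 78 and 54 counts in the negative and 118 and 82 in the positive libraries (log2 fold change 0.71, edgeR adjusted p = 0.0517). It was called with no filter, with at least 10 counts in every library, with the replicate block (0.0132), and without the first Il10-EGFP- or the second Il10-EGFP+ library. Its exons overlap Mafg on the same strand, which had 59 and 39 against 56 and 54 counts. Nsd2, an H3K36 dimethyltransferase, had 93 and 97 against 140 and 122 counts (log2 fold change 0.57, edgeR adjusted p = 0.0743). It was called with at least 10 counts in every library and with the replicate block (0.0310), and it overlaps Nelfa on the other strand, with 96 and 75 against 58 and 59 counts. Atf7ip, a partner of SETDB1, had 54 and 42 against 70 and 73 counts (log2 fold change 0.68, adjusted p = 0.0989), opposite in direction to Setdb1. Its transcript end shares sequences of 50 bases with 373 other genes, which leaves its counts uncertain. Among them Slc3a2 shares 65 and had 158 and 104 against 76 and 77 counts. Cbx5, which encodes HP1 alpha, had 349 and 331 against 356 and 437 counts (log2 fold change 0.32, adjusted p = 0.218).

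Lower values were measured for Ruvbl1, an ATPase of the INO80 and TIP60 complexes, at 86 and 77 against 42 and 55 counts (log2 fold change -0.65, edgeR adjusted p = 0.105). Bap1, the H2A deubiquitinase, had 51 and 32 against 18 and 24 counts (log2 fold change -0.87, adjusted p = 0.133). Kmt2b had 14 and 8 against 3 and 2 counts (log2 fold change -1.98, standard error 0.77, adjusted p = 0.149), while its paralog Kmt2a lay at a log2 fold change of -0.0018.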
